A study of Mus musculus with 4 samples.

Results

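The matrix metalloproteinases (Mmp), the ADAMTS proteases (Adamts), the ADAMTS-like proteins (Adamtsl) and the tissue inhibitors of metalloproteinases (Timp) were followed across the interstitial cells of the mouse heart. Membership was decided by name alone, a symbol that begins with Mmp, Adamts, Adamtsl or Timp and goes on with a digit. The rule took 50 of the 32286 features of the count matrix, 4 Timp, 22 Mmp, 19 Adamts and 5 Adamtsl genes. The 50 genes lie on 18 chromosomes. No measured value enters this rule, although the families were chosen with earlier results of these data known.

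The study took hearts of Ccr2creERT2-Ai14 mice 1 month after stroke or a control condition, with 2 samples of each. All 4 samples share this strain, in which an inducible Cre recombinase is made under the Ccr2 gene and switches on the red reporter tdTomato. Hearts were digested with enzymes, strained to take out cardiomyocytes, freed of red cells and dead cells, and sorted for live nucleated cells before droplet 3′ RNA sequencing. The agent that induced the Cre, the kind of stroke or control operation, the age of the mice and any pooling of hearts are not given in the sources used here.

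Metalloproteinases of the Mmp family are zinc enzymes that are made as inactive precursors, and most are secreted while the membrane types stay at the cell surface. Between them they cut fibrillar collagen, gelatin, elastin, proteoglycans and many non-matrix proteins. ADAMTS proteases are secreted and bind the matrix through thrombospondin repeats. Some of them cut aggrecan and versican, others trim the ends of procollagens, and the ADAMTS-like proteins lack the catalytic domain. Timp proteins bind the active site of Mmp enzymes, and Timp3, which is held in the matrix, is also known to inhibit several ADAMTS proteases.

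The matrix pools 4 sequencing libraries that are told apart by the barcode suffix, and nothing in the sources used here ties a suffix to a control or a stroke sample. The 4 libraries are therefore described as samples without a group, and no comparison of stroke with control was made. They held 44156588, 45834980, 31955157 and 37067428 unique molecular identifiers (UMIs, each a counted RNA molecule), and 9394, 9501, 8600 and 9970 cells were analysed. Of 39570 distinct barcode sequences, 161 occurred in more than 1 library. Cells were grouped into 19 classes of at least 50 cells without the use of any member, and each class was called "X-like" from its marker genes. All 8 fibroblast markers and all 7 neutrophil markers were highest in their own class, against 4 of 6 monocyte and 4 of 7 dendritic cell markers. In the capillary or general endothelial class, here called capillary-like, 5 of 8 markers were, and in the arterial class 6 of 8. Capillary-like cells were the largest class, with 46.0% of the cells. No marker was at 0 in its own class. The fibroblast-like share of cells was uneven, at 36.8%, 21.6%, 7.78% and 21.9% in libraries 1 to 4, so members are given within classes.

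Levels are UMIs summed over the cells of a class and scaled so that all UMIs of each class come to the same total (CPM). Intervals are exact Poisson 95% intervals, and intervals of ratios are exact conditional binomial ones, both of which cover counting error only. The 3′ method counts 1 end of each transcript, with no division by length, so a gene is compared with itself across classes. Shares of a family sum are shares of UMIs and not of transcripts or protein. Values listed for 4 libraries are always in the order of libraries 1 to 4.

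Of the 50 members, 19 reached 100 CPM in at least 1 class, 35 reached 20 CPM, and 15 stayed under 20 CPM in every class. Fibroblast-like cells were the highest class for 11 of the 35 members at 20 CPM or more. Schwann-like cells were highest for 5, epicardial-like and neutrophil-like cells for 3 each, and arterial, capillary, lymphatic and macrophage-like cells for 2 each. B cell-like, endocardial-like, monocyte-like, NK cell-like and pericyte-like cells led for 1 each. Of the 26 members described one by one in the text, 19 had the same highest class in all 4 libraries and 23 in at least 3. The exceptions were Mmp14, Adamts12 and Timp1.

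**Figure D1:**
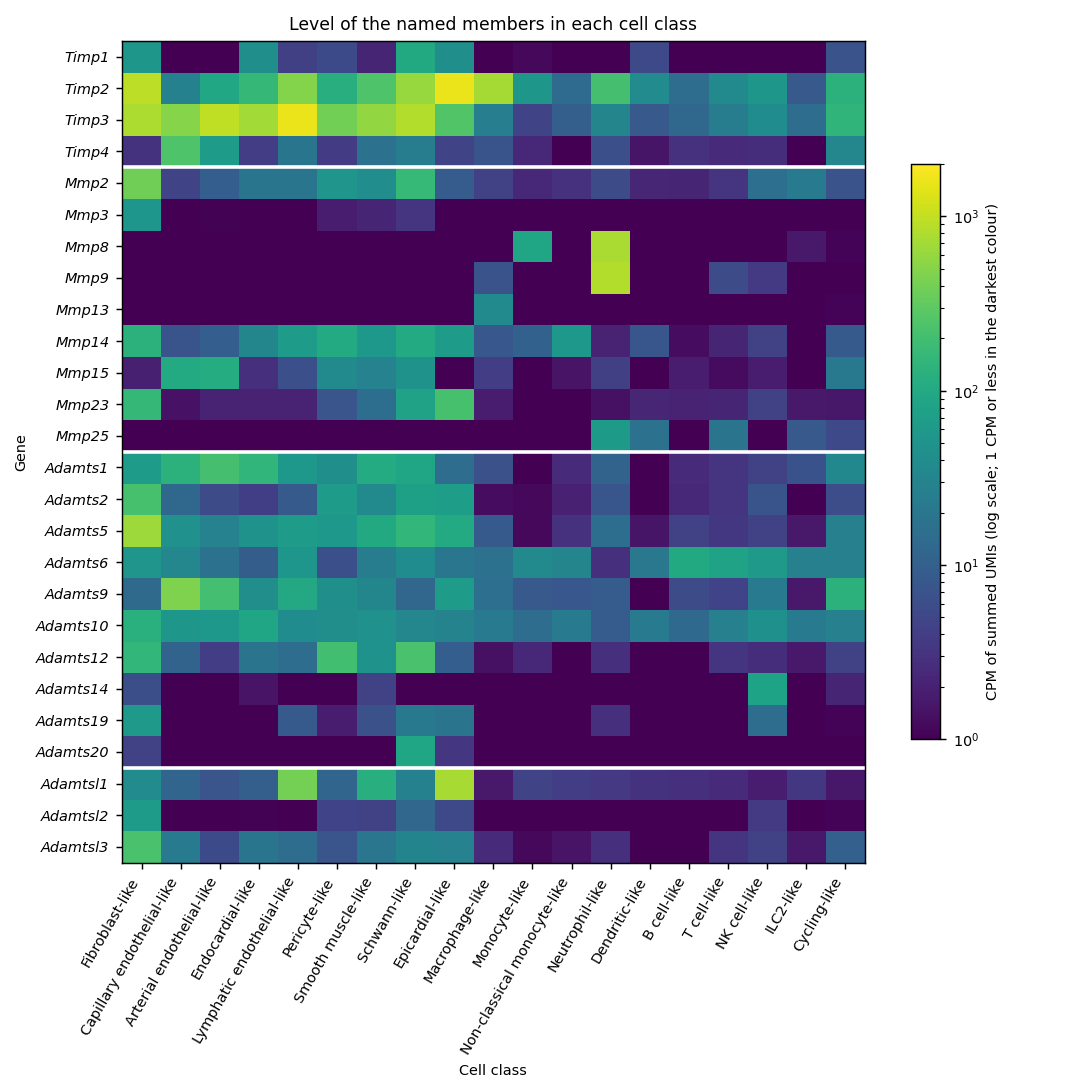
Level of 26 members (rows, grouped as Timp, Mmp, Adamts and Adamtsl by white lines) in 19 cell classes (columns), as CPM of summed UMIs on a log colour scale, with 1 CPM or less in the darkest colour. Timp2 and Timp3 are bright over most non-immune classes, whereas Mmp8 and Mmp9 are bright in neutrophil-like cells and under 10 CPM elsewhere, except Mmp8 in monocyte-like cells (87.3 CPM).

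Fibroblast-like cells were 22.3% of the cells but deeper than most, and gave 54875087 of the 146515313 UMIs of all analysed cells. They held 60.7% of all Timp UMIs, 77.3% of Mmp UMIs, 63.2% of Adamts UMIs and 82.7% of Adamtsl UMIs. Their Timp, Mmp, Adamts and Adamtsl sums were 1775, 838, 1402 and 412 CPM. Over all analysed cells these sums were 1096, 406, 831 and 187 CPM. Capillary-like cells followed with 19.6% of the Timp and 25.5% of the Adamts UMIs. Neutrophil-like cells gave 4.01% of the Mmp UMIs from 431 cells. The sums per class were led by few genes. Timp2 made up 53.0% of the Timp sum of fibroblast-like cells, Mmp2 45.3% of their Mmp sum and Adamts5 46.5% of their Adamts sum. In capillary-like cells Adamts9 was 60.1% of the Adamts sum, and in epicardial-like cells Adamtsl1 was 90.1% of the Adamtsl sum.

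**Figure D2:**
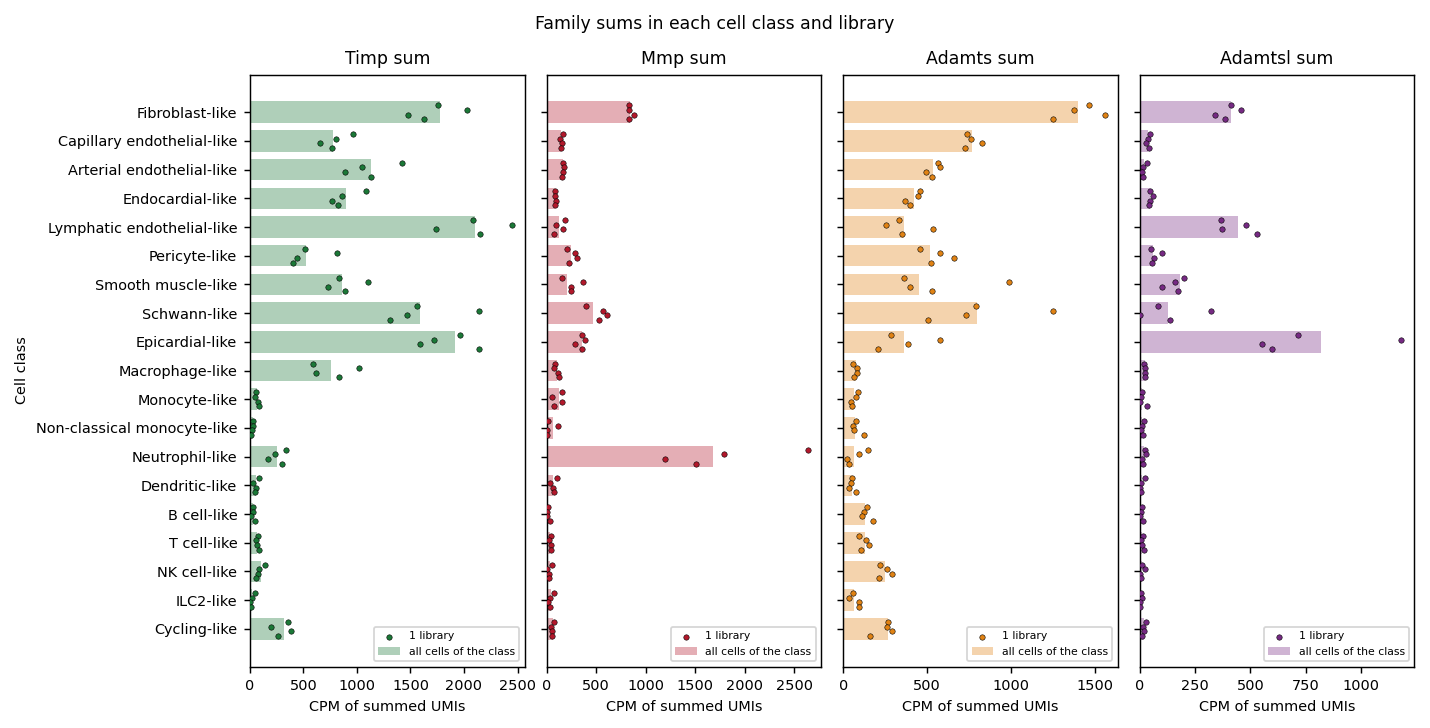
Sum of the Timp, Mmp, Adamts and Adamtsl members (x axes, CPM of summed UMIs) in each of 19 cell classes (y axis). Bars give all cells of a class and points the 4 libraries. The Timp sum is largest in lymphatic endothelial-like cells (2104 CPM), the Mmp sum in neutrophil-like cells (1675 CPM), the Adamts sum in fibroblast-like cells (1402 CPM) and the Adamtsl sum in epicardial-like cells (818 CPM).

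Among the inhibitors, Timp2, which also takes part in the activation of pro-Mmp2 by Mmp14, was highest in epicardial-like cells, the mesothelial cover of the heart. Its level there was 1663, 1417, 1156 and 1865 CPM in the 4 libraries, or 1608 CPM over all of them (1554 to 1663). Fibroblast-like cells followed at 900, 1046, 878 and 913 CPM, and macrophage-like cells at 547, 975, 589 and 810 CPM. The epicardial-like values lay above every fibroblast-like value, while fibroblast-like and macrophage-like values overlapped. Capillary-like cells were at 28.3 CPM and ILC2-like cells, a class of innate lymphoid cells, at 8.47 CPM.

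Timp3 was high over the vessel, stromal and Schwann-like classes and low in the immune classes. Lymphatic endothelial-like cells were at 1558, 1812, 1326 and 1638 CPM, and arterial endothelial-like cells at 1243, 907, 777 and 934 CPM, with a ratio of 1.63 (1.51 to 1.76) over all cells. Fibroblast-like cells stood at 794, 927, 559 and 642 CPM, which overlapped the arterial values. Schwann-like cells were at 865, 990, 611 and 697 CPM, from 269 UMIs. Over all cells they had 833 CPM and fibroblast-like cells 775 CPM. Endocardial-like cells had 692 CPM, smooth muscle-like cells 590 CPM, capillary-like cells 500.1 CPM and pericyte-like cells 397 CPM. Epicardial-like cells, the highest class for Timp2, were at 256 CPM for Timp3. Macrophage-like cells, the third highest class for Timp2, were at 25.8 CPM, and monocyte-like cells were lowest at 4.72 CPM.

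Timp4, the inhibitor known for its narrow, heart-rich expression, was highest in capillary-like cells, the class of capillary or general endothelial cells. Capillary-like cells were at 346, 248, 184 and 262 CPM and arterial endothelial-like cells at 63.2, 55.8, 56.6 and 76.2 CPM, 3.88 times lower over all cells (3.50 to 4.32). The groups of values did not overlap. No other class passed 34.1 CPM, the level of cycling-like cells. Timp1, the inhibitor that cytokines induce, was low throughout. Schwann-like cells were highest at 98.0, 20.2, 306 and 123 CPM, which rests on 33 UMIs in 24 of 123 cells. Fibroblast-like cells held 3107 Timp1 UMIs at 59.1, 49.1, 40.3 and 67.5 CPM. In endocardial-like cells Timp1 was at 120, 11.8, 13.9 and 15.9 CPM, and a single cell of library 1 carried 377 of the 558 UMIs of the class.

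To compare how many cells carried an inhibitor, each cell was thinned to 1000 UMIs, since depth differed between classes. After thinning, 53.9% of fibroblast-like cells had a Timp2 UMI (93.5% before) against 0.875% of B cell-like cells (6.23% before), a class taken as the background of free RNA. Median depths were 6421 and 4000 UMIs per cell. Timp3 was found in 71.8% of thinned lymphatic endothelial-like cells (89.3% before), 41.2% of fibroblast-like cells (81.7% before) and 0.875% of B cell-like cells (4.72% before). Timp4 was found in 19.6% of capillary-like cells (33.9% before) and in 0.135% of B cell-like cells (0.983% before). Without thinning, 6510 of 8360 fibroblast-like cells held both Timp2 and Timp3, and 3638 of 17241 capillary-like cells held both Timp3 and Timp4.

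Among the proteases, the gelatinase Mmp2 and the membrane-anchored Mmp14 both had their highest level in fibroblast-like cells. Mmp2 was at 368, 392, 410 and 376 CPM there and at 125, 242, 183 and 191 CPM in Schwann-like cells, so every fibroblast-like value was above every Schwann-like value. The ratio over all cells was 2.36 (1.80 to 3.16). Mmp14, the enzyme that activates pro-Mmp2, was at 133, 118, 165 and 134 CPM in fibroblast-like cells. Schwann-like cells (105 CPM) and pericyte-like cells (105 CPM) were close behind, and the ratio of the first to the next class, 1.25, had an interval of 0.896 to 1.81. The order of these 2 classes held in 2 of 4 libraries.

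Schwann-like cells were 123 cells, and their fibroblast markers summed to 5571 CPM, against 41065 CPM in fibroblast-like cells. Fibroblast markers were at 5589 CPM in epicardial-like cells, 4808 CPM in smooth muscle-like cells, 3053 CPM in pericyte-like cells and 505 CPM in macrophage-like cells. What part of the Mmp2, Mmp14 and Adamts5 levels in these classes goes with the markers was not tested.

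Mmp23, a membrane-bound member with an unusual domain order, had its highest level in epicardial-like cells at 202, 234, 173 and 219 CPM. Fibroblast-like cells followed at 149, 172, 138 and 163 CPM, 1.37 times lower over all cells (1.24 to 1.51). Epicardial-like cells were above fibroblast-like cells within each library, although the lowest epicardial-like value, 173 CPM, lay next to the highest fibroblast-like value, 172 CPM. Mmp15, another membrane type, was endothelial. Arterial endothelial-like cells were at 106, 131, 120 and 99.7 CPM and capillary-like cells at 105, 101, 112 and 101 CPM, and these 2 classes could not be separated (ratio 1.06, 0.975 to 1.15). Mmp16, a further membrane type outside the rule for genes described one by one and named after its values were seen, was at 59.0 CPM in fibroblast-like and 52.9 CPM in epicardial-like cells.

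The gelatinase Mmp9 and the collagenase Mmp8 are both stored in neutrophil granules, and both were led by neutrophil-like cells. Mmp9 was at 984, 831, 767 and 805 CPM there, with UMIs in 346 of 431 cells. The next class, macrophage-like cells, was at 0, 7.46, 7.98 and 7.11 CPM, and the ratio over all cells was 119 (89.8 to 162). Mmp8 was at 1485, 847, 390 and 641 CPM in neutrophil-like cells, a wider spread between libraries than Mmp9 had. UMIs of Mmp8 were found in 219 neutrophil-like cells, and 186 cells held both genes. Mmp25, a membrane type of leukocytes, was at 92.0, 88.6, 32.3 and 49.3 CPM in neutrophil-like cells, with T cell-like cells next at 18.4 CPM.

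Monocyte-like cells held Mmp8 without Mmp9. There Mmp8 was at 113, 31.1, 117 and 33.3 CPM, in 45 of 117 cells, while Mmp9 had no UMI. The summed level of the 7 neutrophil markers was 320 CPM in monocyte-like cells and 149705 CPM in neutrophil-like cells. Of the 45 cells with Mmp8, 8 also held a UMI of the neutrophil gene S100a8, which was found in 17 of the 117 cells.

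Mmp13, the main interstitial collagenase of mice, was held almost wholly by macrophage-like cells. They were at 45.8, 16.9, 47.0 and 36.7 CPM and held 262 of its 271 UMIs. Cycling-like cells were next with 2 UMIs (1.08 CPM, ratio 34.3, 9.39 to 284). Mmp12, the macrophage elastase, was at 29.3 CPM in macrophage-like cells and 22.7 CPM in dendritic-like cells, and these classes could not be separated (ratio 1.29, 0.877 to 1.96). Among 1181 macrophage-like cells, 54 held Mmp12, 141 held Mmp13 and 16 held both. Mmp3, stromelysin-1, was a fibroblast transcript with 3003 of its 3049 UMIs in fibroblast-like cells. It stood at 68.9, 39.4, 56.3 and 46.8 CPM there, and no UMI was found in macrophage-like or neutrophil-like cells.

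Mmp3, Mmp8, Mmp12 and Mmp13 are neighbours. Together with Mmp1b, Mmp7, Mmp10, Mmp20 and Mmp27 they form a group of 9 genes on chromosome 9, between 7272514 and 7699585 in build GRCm38, a stretch of 427 kb. Within that stretch the 4 genes that passed 20 CPM in a class were led by different classes, Mmp13 and Mmp12 by macrophage-like, Mmp3 by fibroblast-like and Mmp8 by neutrophil-like cells. Fibroblast-like cells held 1 UMI each of Mmp13 and Mmp12 and 2 of Mmp8, in 54875087 UMIs. Mmp27 reached 2.81 CPM at most, and the remaining genes of the group had 0 to 2 UMIs in all analysed cells. Mmp12 and Mmp1b overlap on opposite strands.

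**Figure D3:**
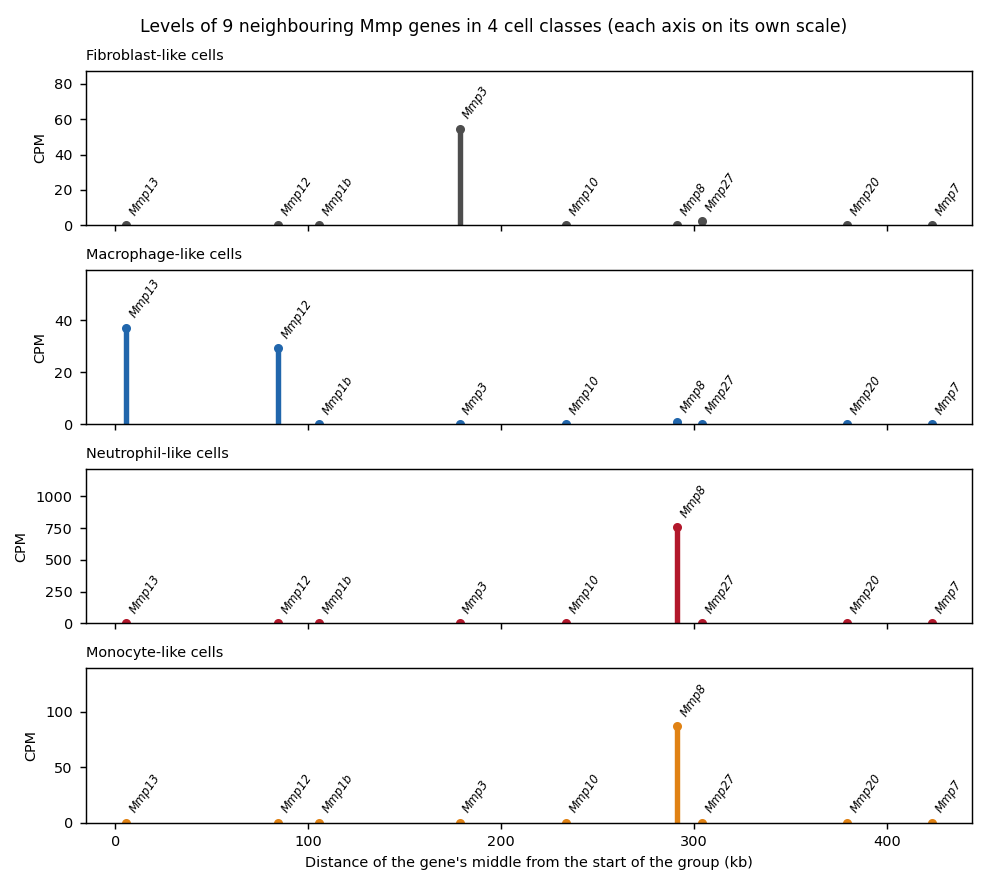
Level (y axes, CPM, each panel on its own scale) of the 9 neighbouring Mmp genes on chromosome 9, placed by the distance of each gene's middle from the start of the group (x axis, kb), in fibroblast-like, macrophage-like, neutrophil-like and monocyte-like cells. A different gene stands up in each of the first 3 panels, Mmp3 at 54.7 CPM, Mmp13 with Mmp12 at 37.1 and 29.3 CPM, and Mmp8 at 760 CPM.

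The sequences before the start sites of these 4 genes are shown because the neighbours differ in their class while 3 of them carry the same short motif at a listed start site. Each is 150 bases of the RefSeq promoter table (build GRCm38.p6, chromosome 9, forward strand, 5′ to 3′, the last base next to the start site), and capitals mark the AP-1 motif, TGANTCA, which reads the same on both strands. Mmp13 runs from 7272364 to 7272513, Mmp12 (the downstream of its 2 listed start sites) from 7347224 to 7347373, Mmp3 from 7445672 to 7445821 and Mmp8 from 7558279 to 7558428.
Mmp13: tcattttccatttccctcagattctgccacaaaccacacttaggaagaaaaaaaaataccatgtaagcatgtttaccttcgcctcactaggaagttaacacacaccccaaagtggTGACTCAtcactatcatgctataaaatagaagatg
Mmp12: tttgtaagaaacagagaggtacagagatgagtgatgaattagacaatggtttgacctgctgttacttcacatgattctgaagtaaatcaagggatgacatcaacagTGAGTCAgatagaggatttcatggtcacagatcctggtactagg
Mmp3: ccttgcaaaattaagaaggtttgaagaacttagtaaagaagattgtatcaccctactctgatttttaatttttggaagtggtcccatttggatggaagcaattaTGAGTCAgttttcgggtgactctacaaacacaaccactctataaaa
Mmp8: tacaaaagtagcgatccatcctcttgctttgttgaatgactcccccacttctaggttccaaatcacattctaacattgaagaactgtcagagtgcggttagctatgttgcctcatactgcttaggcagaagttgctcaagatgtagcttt

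Counted from the start site, the motif begins at position -35 in Mmp13, -44 in Mmp12 and -46 in Mmp3. The Mmp8 window holds no match, and neither does that of the other, upstream start site listed for Mmp12. The whole RefSeq window, from 250 bases before to 50 after a start site, was searched in 32851 promoters, and 2565 of them (7.81%) held the motif. Among the members, 35 of 50 matched an entry, with 38 promoters, and 7 genes held the motif. All 7 belong to the chromosome 9 group, where Mmp1b, Mmp7, Mmp10 and Mmp20 also carry it and Mmp8 and Mmp27 do not. None of the 26 other members with an entry had a match, which include all 4 Timp genes, Mmp14 and Adamts9. A match describes letters only, and genes of the group are related by duplication and share sequence. Of the 7 genes with the motif, Mmp10 had no UMI in any analysed cell and Mmp1b, Mmp7 and Mmp20 had 1, 1 and 2. Motifs named PU.1 and C/EBP were also searched in the whole windows and were held by 3.20% and 10.8% of all promoters. Among the members, PU.1 matched Mmp7, Mmp8 and Mmp12. C/EBP matched Mmp3, Mmp7, Mmp8, Mmp10, Mmp12 and Mmp27.

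Among the ADAMTS proteases, the aggrecanase and versicanase Adamts5 was the leading gene of fibroblast-like cells. It stood at 655, 640, 854 and 583 CPM there, and at 163, 323, 0 and 41.0 CPM in Schwann-like cells, the next class, which rests on 49 UMIs. The ratio was 4.29 (3.25 to 5.81), and the ranges did not overlap. Adamts2, which removes the N-terminal propeptide of procollagen, was at 224, 240, 199 and 199 CPM in fibroblast-like cells and at 74.4 CPM in Schwann-like cells. Adamts10, which is linked to fibrillin microfibrils, was at 128, 126, 139 and 115 CPM in fibroblast-like cells and at 86.8, 93.7, 88.2 and 82.7 CPM in endocardial-like cells (ratio 1.45, 1.36 to 1.54). After thinning, Adamts5 was found in 38.5% of fibroblast-like cells (79.1% before) and 0.336% of B cell-like cells (1.90% before).

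The endothelial classes carried other members of the family. Adamts9, a versican-cutting protease, was at 436, 454, 523 and 414 CPM in capillary-like cells and at 193, 282, 211 and 165 CPM in arterial endothelial-like cells (ratio 2.27, 2.14 to 2.41). Capillary-like values were above arterial values in all 4 libraries. Adamts1, which also cuts versican and is known as an inhibitor of angiogenesis, had the opposite order, with 246, 175, 165 and 247 CPM in arterial and 128, 126, 130 and 143 CPM in capillary-like cells. Endocardial-like cells lay between them at 150 CPM. Adamts1 and Adamts5 are neighbours on chromosome 16 (85793827 to 85901828 in build GRCm38, 53.1 kb apart on the same strand), and were led by arterial endothelial-like and fibroblast-like cells.

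Adamts12, which cuts cartilage oligomeric matrix protein, was at 223 CPM in Schwann-like, 199 CPM in pericyte-like and 152 CPM in fibroblast-like cells, and the first 2 could not be separated (ratio 1.12, 0.846 to 1.47). Within the fibroblast-like class, the Wif1 type described below was at 252 CPM (298, 175, 124 and 126 CPM in the 4 libraries). A set of lower members stood apart by class. Among the classes, Adamts6 was highest in lymphocytes, with 105, 93.0, 97.1 and 137 CPM in B cell-like cells. T cell-like cells were at 79.1 CPM and NK cell-like cells at 60.1 CPM. Parts of the fibroblast-like class reached a similar level. The Mfap4-led group was at 134, 115, 87.1 and 104 CPM, the Wif1 type at 113 CPM and the Smoc2 Dpep1 type at 26.3 CPM. Adamts14, a procollagen N-propeptidase like Adamts2, was led by NK cell-like cells at 52.5, 131, 82.4 and 86.2 CPM, in 62 of 246 cells, while fibroblast-like cells were at 6.18 CPM (ratio 13.4, 10.5 to 16.9). Adamts20 was at 92.5, 40.4, 122 and 95.7 CPM in Schwann-like cells, from 28 UMIs in 21 of 123 cells, and at 4.30 CPM in fibroblast-like cells (ratio 20.2, 13.1 to 29.9). Adamts19 was at 69.5, 56.0, 43.8 and 57.9 CPM in fibroblast-like cells. Its 17 UMIs in NK cell-like cells all came from 1 cell.

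The 3 ADAMTS-like genes within the rule for genes described one by one split between mesothelium, lymphatic vessels and fibroblasts. Adamtsl1 was at 639, 1087, 471 and 528 CPM in epicardial-like cells and at 334, 450.3, 339 and 482 CPM in lymphatic endothelial-like cells (ratio 1.82, 1.56 to 2.12). The order held within each library although the ranges overlap. Adamtsl3 was at 223, 252, 188 and 219 CPM in fibroblast-like cells, and the next class, Schwann-like cells, had 10 UMIs, of which 9 came from 1 cell. Adamtsl2, known for its link to fibrillin and to geleophysic dysplasia, was at 69.7, 71.9, 46.1 and 50.9 CPM in fibroblast-like cells and at 12.4 CPM or less elsewhere.

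For the balance of inhibitors and proteases, the Timp sum was divided by the sum of Mmp and Adamts within each class. The ratio compares UMIs of RNA and is no measure of enzyme activity. Its interval lay above 1 in 7 of 19 classes and below 1 in 11, and held 1 in cycling-like cells (0.964, 0.859 to 1.08). Lymphatic endothelial-like cells had 4.03, 6.91, 2.49 and 5.08 in the 4 libraries, macrophage-like cells 3.90, 6.42, 3.16 and 4.42, and epicardial-like cells 3.04, 1.79, 2.36 and 3.78. In all 3 classes every library was above 1. In macrophage-like cells 95.6% of the Timp sum was Timp2.

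Fibroblast-like cells combined a Timp sum of 1775 CPM with an Mmp sum of 838 and an Adamts sum of 1402 CPM. Their ratio was 0.763, 0.915, 0.607 and 0.781, below 1 in every library. Against the Mmp sum alone, the fibroblast-like Timp sum was 2.12 times larger (2.09 to 2.14), so the place of this class on either side of 1 depends on counting the Adamts genes. Capillary-like cells were at 1.07, 0.897, 0.669 and 0.879, on both sides of 1. Neutrophil-like cells were lowest at 0.120, 0.125, 0.136 and 0.196, with an Mmp sum of 2640, 1788, 1199 and 1506 CPM, of which Mmp9 was 49.5%. The other immune classes below 1 had low sums on both sides, with a Timp sum of 31.0 CPM against 12.3 CPM of Mmp and 132 CPM of Adamts in B cell-like cells, for instance.

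**Figure D4:**
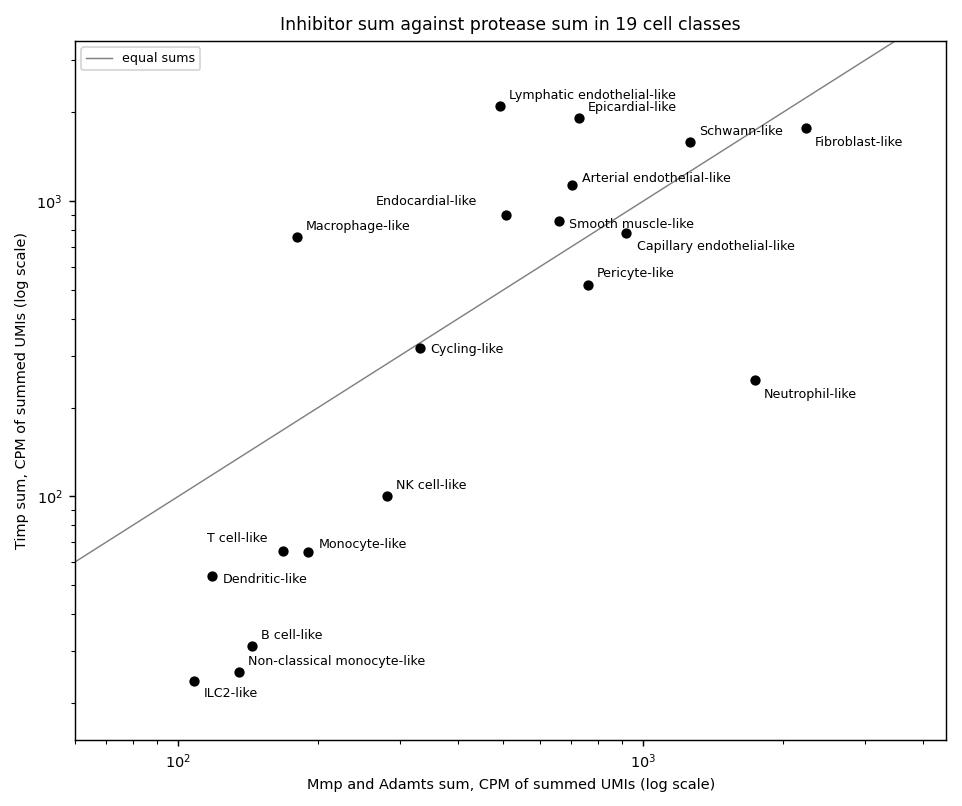
Timp sum (y axis, CPM of summed UMIs, log scale) against the sum of Mmp and Adamts (x axis, CPM, log scale) in 19 cell classes, 1 point per class, with a line where both are equal. Lymphatic, epicardial-like and macrophage-like cells lie farthest above the line (ratios 4.28, 2.63 and 4.19) and neutrophil-like cells farthest below it (0.143).

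Within the fibroblast-like class, 4 groups were told apart without the members. Groups named from their markers were a Pi16 Cd248 type (1173 cells), a Smoc2 Dpep1 type (5054 cells) and a Wif1 type (213 cells, with 147, 24, 4 and 38 in the 4 libraries). A further group of 1920 cells led by Mfap4, Nkain3 and Ccn2 stayed unnamed, and the early response genes Nr4a1, Egr3 and Ier3 were among its 10 leading genes. Of the 8 fibroblast markers, 3 reached 2-fold in the Wif1 type, the fewest that allow the name, and 7 or 8 did in each other group. Of 24 members at 20 CPM or more, 9 were highest in the Pi16 Cd248 type, 8 in the Mfap4-led group, 6 in the Wif1 type and 1, Mmp2, in the Smoc2 Dpep1 type. The interval of the ratio to the next group lay above 1 for 19 of the 24, and 10 had the same highest group in all 4 libraries.

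Timp2 and Timp3 were unevenly spread over these groups. Timp2 was at 1597, 1894, 1522 and 1579 CPM in the Pi16 Cd248 type and at 627 to 869 CPM in the other groups. Timp3 was at 1576, 1981, 1386 and 1523 CPM in the Mfap4-led group and 1318 CPM in the Wif1 type, against 637 CPM in the Pi16 Cd248 type and 433 CPM in the Smoc2 Dpep1 type. Each inhibitor was thus highest in a different group. Timp1 was at 124 CPM in the Wif1 type and 98.4 CPM in the Mfap4-led group, and at 38.1 CPM in the Pi16 Cd248 type.

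Adamts5 was graded across the groups, with 1132, 1079, 1205 and 979 CPM in the Pi16 Cd248 type, 689 CPM in the Smoc2 Dpep1 type, 284 CPM in the Mfap4-led group and 48.0 CPM in the Wif1 type. The first was 22.6 times the last (17.7 to 29.5). Adamtsl3 had the same highest and lowest group, with 575, 560.4, 509 and 496 CPM in the Pi16 Cd248 type and 44.9 CPM in the Wif1 type. Adamtsl4, which is linked to fibrillin microfibrils of the eye lens ligament, was at 71.5 CPM in the Pi16 Cd248 type.

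The Wif1 type carried other members. Adamts19 was at 286, 328, 206 and 295 CPM there and at 86.0 CPM in the Mfap4-led group (ratio 3.37, 2.99 to 3.79). Mmp3 was at 180, 15.3, 124 and 212 CPM in the Wif1 type, 104 CPM in the Mfap4-led group, 44.4 CPM in the Smoc2 Dpep1 type and 9.44 CPM in the Pi16 Cd248 type. Library 2, with 24 Wif1-type cells, was the low one for Mmp3. Mmp2 had a narrower spread over the groups, with 396, 382 and 357 CPM in the Smoc2 Dpep1, Mfap4-led and Pi16 Cd248 groups and 156 CPM in the Wif1 type. Mmp14 was likewise lowest in the Wif1 type, at 50.2 CPM against 103 to 144 CPM.

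The procollagen protease Adamts2 and the fibrillin-linked Adamtsl2 were highest in the Mfap4-led group. Adamts2 was at 292, 309, 242 and 253 CPM there and at 240 CPM in the Pi16 Cd248 type. Adamtsl2 was at 113, 124, 59.1 and 95.8 CPM there and at 15.7 CPM in the Pi16 Cd248 type. The balance differed between groups as well. The ratio of Timp to Mmp and Adamts was 1.25 in the Mfap4-led group, 1.21 in the Wif1 type, 0.909 in the Pi16 Cd248 type and 0.560 in the Smoc2 Dpep1 type.

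**Figure D5:**
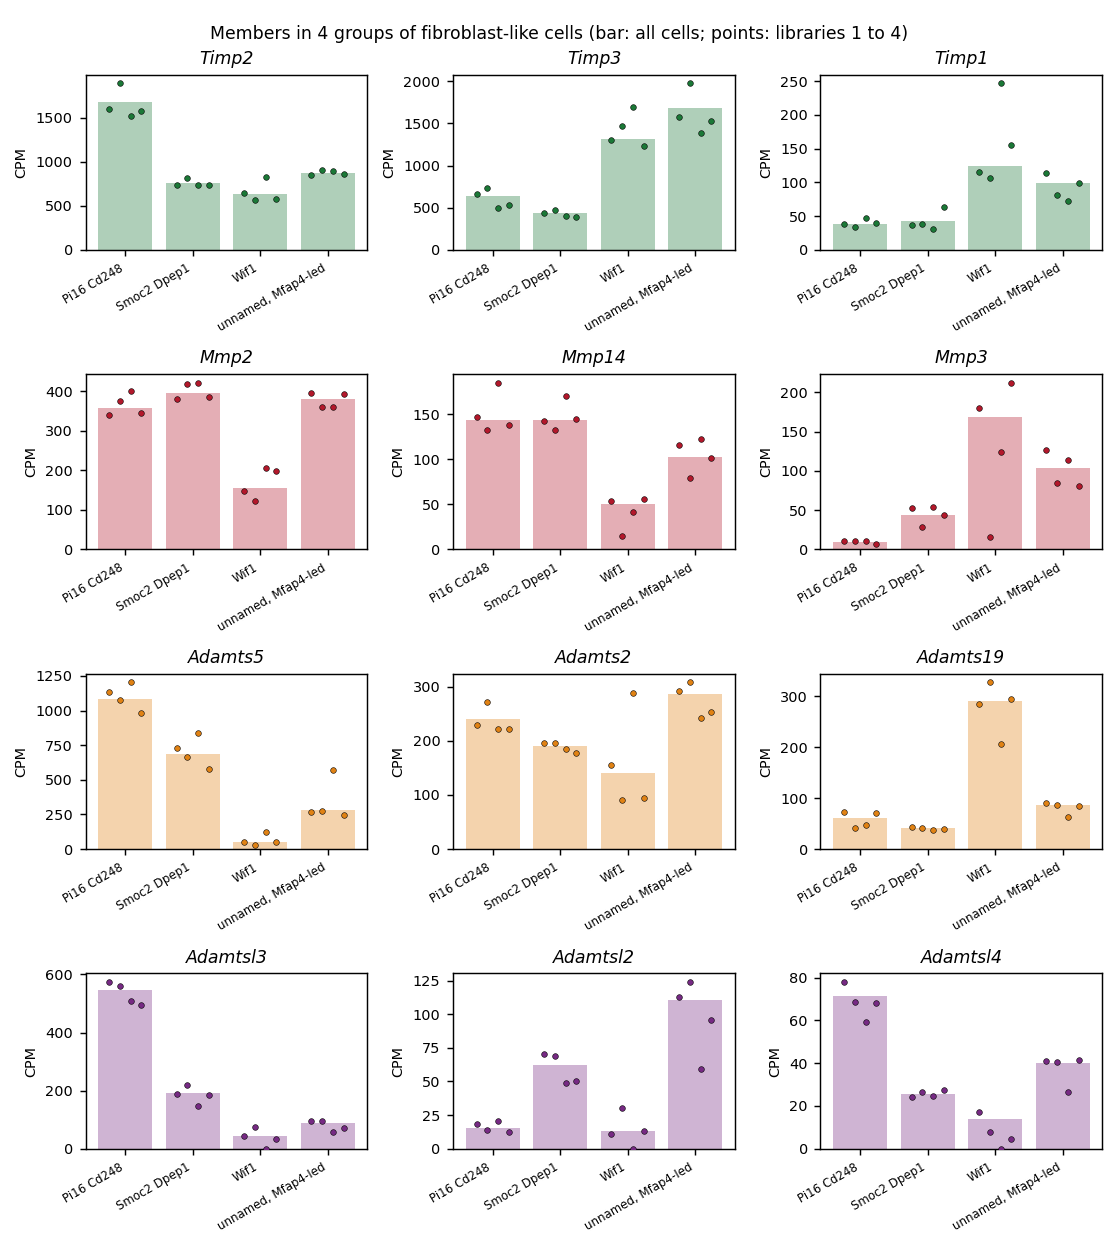
Level (y axes, CPM of summed UMIs, each panel on its own scale) of 12 members in the 4 groups of fibroblast-like cells (x axes). Bars give all cells of a group and points libraries 1 to 4. Adamts5 and Adamtsl3 stand highest in the Pi16 Cd248 type (1085 and 546 CPM), Timp3 and Adamtsl2 in the unnamed Mfap4-led group (1682 and 110 CPM), and Adamts19 and Mmp3 in the Wif1 type (290.0 and 168 CPM), where library 2 is low for Mmp3.

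Within the endothelium, Adamts9 separated capillaries, arteries and valve. It was at 620, 549, 655 and 581 CPM in the Aplnr capillary group, 411 CPM in the Car4 Rgcc capillary group and 197 CPM in the large artery group. In the valve endocardium group it was at 14.98 CPM, 40.1 times below the Aplnr capillary group (28.8 to 57.7). Timp4 was at 260.4 CPM in the Aplnr and 244 CPM in the Car4 Rgcc capillary group. An unnamed endothelial group led by Kirrel3 (243 CPM) and an interferon group (226 CPM) were close to these. The large artery group was at 62.1 CPM, the vein group at 7.70 CPM and chamber endocardium at 3.46 CPM. Mmp15 parted capillaries and arteries from the endocardium, at 120.5 CPM in the Car4 Rgcc capillary, 112 CPM in the large artery and 100.4 CPM in the Aplnr capillary group, against 2.62 CPM in chamber and 1.71 CPM in valve endocardium.

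Other members were highest in the endocardium or the veins. Among them are Adamts17, a protease of unsettled substrates, and Adamts8, which are outside the rule for genes described one by one and are named after their values were seen. Adamts17 was at 54.3, 58.9, 40.6 and 52.6 CPM in chamber endocardium and at 11.99 CPM in the next group. Adamts8 was at 22.3, 85.4, 25.6 and 17.3 CPM in valve endocardium and at 1.46 CPM in the next group (ratio 25.9, 12.6 to 61.8). Both genes were higher in their group than in any other endothelial group in each of the 4 libraries. Adamtsl3 was at 97.7, 253, 189 and 124 CPM in the vein group, which had 156 cells, and at 46.9 CPM in the next group. Timp2 was at 262 CPM in valve endocardium and 245 CPM in the vein group, against 20.1 CPM in the Car4 Rgcc capillary group.

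Within the macrophage-like class, Timp2 was at 1297 CPM in a serous cavity type of 118 cells, which library 1 lacked. It was at 1330, 979 and 1240 CPM in libraries 2 to 4, from 80, 4 and 34 cells. Libraries 2 and 4 held 266 and 145 macrophage-like cells in all, with Timp2 at 975 and 810 CPM over the class. What part of those class levels goes with the serous cavity type was not tested. The resident Lyve1 Timd4 type was at 878 CPM, an unnamed group led by Cd83, Ccl4 and Il1b at 500.4 CPM, and the MHC-II high type at 400 CPM. Mmp12 was at 52.4 CPM in the MHC-II high type and 45.1 CPM in the Cd83-led group, which could not be separated (ratio 1.16, 0.841 to 1.6). It was at 15.3 CPM in the serous cavity type and 5.77 CPM in the Lyve1 Timd4 type (ratio of the first to the last 9.07, 4.68 to 19.6). Mmp13 was at 34.1 to 50.4 CPM in the Lyve1 Timd4, Cd83-led and MHC-II high groups and at 2.19 CPM in the serous cavity type. A group of 82 cells led by the endothelial genes Kdr, Cyyr1 and Dach1 held Mmp13 at 55.4 CPM. Its Mmp13 level could not be separated from that of the MHC-II high type (ratio 1.10, 0.715 to 1.66). The same 82 cells held Adamts9 at 139 CPM and Timp3 at 138 CPM. Of these endothelial members, no other macrophage group held more than 10.2 CPM of Adamts9 or 37.2 CPM of Timp3.

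Each class was also set against all other cells, and a gene was called higher or lower past a 2-fold difference in CPM where the larger side reached 20 CPM. In fibroblast-like cells 23 of the 50 members passed this filter on level. Of them 16 (69.6%) were higher, where 13.5% of all 8247 features past the filter were, and 3 were lower (Adamts9, Timp4 and Mmp15), where 19.3% of all features were. A member that passed only through the side where it is high had to differ, so these counts describe the members past the filter and not all 50. In capillary-like cells the same 3 genes were higher, 3 of 23 members past the filter (13.04%), where 12.7% of all features were higher, so that share is near the background, and 16 of the 23 were lower, where 18.2% of all features were. In neutrophil-like cells Mmp9, Mmp8 and Mmp25 were higher, 3 of 24 past the filter (12.5%), where 15.6% of all features were, again near the background, and 21 of the 24 were lower, where 54.6% of all features were. The median log2 ratio of the members past the filter was 3.06 in fibroblast-like cells, where that of all features past it was -0.12. It was -3.12 in capillary-like cells, where that of all features was 0.04.

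Other genes of the extracellular protease system were read from a list of 42 activators, convertases, related proteases, inhibitors, docking proteins and substrates. In fibroblast-like cells 31 of the 42 passed the filter, with 17 higher and 7 lower. Of all features past it, 13.5% were higher and 19.3% lower. The 17 include Col1a1 and Dcn, which were also among the markers that named the class. Fibroblast-like cells led for Pcsk6, a convertase (516 CPM), Pcolce, the enhancer of procollagen C-proteinase (506 CPM), Bmp1, that proteinase (89.8 CPM), and Lrp1, the receptor that clears metalloproteinases (585 CPM). The substrates Dcn and Fbn1 were at 13186 and 912 CPM there. Neutrophil-like cells, which led for Mmp8 and Mmp9, also led for Lcn2, which binds Mmp9 (3518 CPM), Plaur, the urokinase receptor (1093 CPM), Cd44 (1457 CPM) and Adam8 (294 CPM). Reck, a membrane inhibitor of Mmp enzymes, was at 102 CPM in Schwann-like and 50.1 CPM in fibroblast-like cells. Col4a1, a basement membrane collagen, was at 1343 CPM in capillary-like cells, and Furin was highest in ILC2-like cells at 393 CPM.

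The genes whose level over classes was most like that of 5 members were taken from 5408 features by Pearson's r of log2(CPM + 1) over the 19 classes, which share the 4 libraries and differ in depth and cell number. The nearest to Timp2 were Hsbp1 (r = 0.894), Ptgis, Rnase4, Tmem119 and Cd63, and the nearest to Timp3 were Ltbp4 (r = 0.974), Nckap1, Npdc1, Fkbp9 and Rbfox2. Timp4 was nearest to Car4 (r = 0.963), C1qtnf9, Gpihbp1, Trpm3 and Lnx1. Mmp2 was nearest to Scara5 (r = 0.917), Islr, Dpt, Mfap5 and Lum. Adamts5 was nearest to Serpinh1 (r = 0.956), Fhl1, Mir100hg, Fstl1 and a further member, Adamtsl3 (r = 0.941). Gpihbp1, Dpt, Mfap5 and Lum were among the markers that named the classes.

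The 15 members under 20 CPM in every class included Adamts15, at 19.4 CPM in fibroblast-like cells, and Adamts3, at 14.9 CPM there. Mmp10 had no UMI in any analysed cell, which in fibroblast-like cells allows up to 0.0547 CPM by the limit of 3 counts. Mmp1b, Mmp7, Mmp20 and Mmp21 had 1 to 3 UMIs, and Adamts13, the protease of von Willebrand factor, had 5. At this depth a low level in few cells could not be told from absence.

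For 3 of the inhibitors another gene lies across the locus. Timp1, Timp3 and Timp4 lie within Syn1, Syn3 and Syn2 on the opposite strand. In the class where each Timp was highest, Syn3 was at 87.7 CPM beside 1586 CPM of Timp3 in lymphatic endothelial-like cells. Syn2 was at 10.2 CPM beside 249.4 CPM of Timp4 in capillary-like cells, and Syn1 at 9.30 CPM beside 102 CPM of Timp1 in Schwann-like cells. The sources used here do not state whether reads were counted by strand.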

How the data were processed

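The deposited file is a single matrix of raw UMI counts per gene and cell barcode, 32286 features by 39731 barcodes. The authors made the counts with Cell Ranger 7.1.0 on mm10, per the labels' processing entries and the header of the deposited matrix. How the libraries were joined and whether introns or strand were counted are not given in the sources used here. The members, the companion list and the marker lists were chosen with earlier results of these data known.

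Cells with under 500 UMIs, under 250 genes or over 15% mitochondrial UMIs were removed (821), as were 1445 doublets called by Scrublet in scanpy 1.11.5 within each library. In library 3 the automatic threshold marked 0.0113% of cells, so the threshold of library 4, 0.188, was used. The 37465 remaining cells were clustered from 2000 variable genes and 30 principal components with 15 neighbours and Leiden resolution 1 (leidenalg 0.10.2, igraph 0.11.9). Members, companions, mitochondrial, ribosomal, sex-linked and haemoglobin genes and tdTomato were left out of the clustering. Clusters were named from 157 markers in 23 lists when at least 3 markers reached 2-fold, and 181 cells stayed unnamed. Endothelial and macrophage subtypes came from a further division at resolution 0.5. The groups of fibroblast-like cells are the clusters of the first division, at resolution 1. Subtypes were named with a fold of 1.5. The exclusion of haemoglobin genes, the second division of mixed clusters and the subtype settings were chosen after the clusters were seen.

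UMI counts were summed per class and library into CPM, with intervals from scipy 1.17.1. Libraries could not be tied to samples, so the planned count test of stroke against control was not run. An exact permutation test of 2 against 2 samples cannot go below a p of 0.333. The calls by fold were tested on simulated data. Members with at least 100 CPM in a class were described one by one, and so were those with at least 20 CPM and 2 times the next class. The rest are given by count and range. The genes most like Mmp14 are not reported here. All 50 gene identifiers matched the GENCODE vM21 annotation of GRCm38, from which coordinates were taken. Promoter sequences came from the RefSeq table of GRCm38.p6, and figures were drawn with matplotlib 3.10.9.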

Additional observations from a re-analysis of the deposited data

Results flagged for a closer look

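Of 102 levels checked for 1 library far from the others, 2 were picked out by Dixon's criterion for 4 values, which chance alone meets in about 1 of 20 groups. The libraries are not known to belong to 1 group. The Mmp sum of fibroblast-like cells was 878 CPM in library 3 and 835, 837 and 831 CPM in libraries 1, 2 and 4, and the gap was 0.879 of the range.

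The Mmp sum of non-classical monocyte-like cells was 117 CPM in library 2 and 17.4, 4.04 and 8.36 CPM in libraries 1, 3 and 4, with a gap of 0.882 of the range. Nearly all of it was Mmp14, with 112 of its 116 UMIs in library 2. There 67 of 192 cells held an Mmp14 UMI (34.9%, exact binomial 95% interval 28.2% to 42.1%), and no cell held more than 10. In the other libraries 2 of 53, 0 of 102 and 2 of 60 cells did. The fibroblast markers in these cells summed to 404, 223, 40.4 and 201 CPM in libraries 1 to 4. Mmp14 in macrophage-like cells of the same libraries was at 7.16, 8.96, 5.99 and 14.2 CPM.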

How the results depend on the processing

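Of 26 members described one by one, 23 kept their highest class under all 11 alternatives, which were a stricter cell filter, doublets kept, Leiden resolution 2, equal weight per cell, thinning to 1000 UMIs, cells with clean markers, haemoglobin genes kept in clustering (chosen after seeing the data) and each library left out. The exceptions were Timp4, Mmp15 and Adamts12. Timp4 moved to a separately named venous-like class under the stricter filter (275 CPM) and with doublets kept (268 CPM). With haemoglobin genes kept it moved to an erythroid-like class (283 CPM). In the main setting the vein group of 156 cells held Timp4 at 7.70 CPM. Whether the venous-like class is made of the same cells as that group was not tested. The arterial and capillary-like levels of Mmp15 changed order in 4 settings, and Adamts12 moved to pericyte-like cells on thinning (222 CPM). Larger than counting error were these moves. The fibroblast-like Timp sum (1775 CPM) was 1703 with equal weights, 1684 thinned and 1737 in clean cells, and 1681 to 1820 (1819.5) with a library left out. The fibroblast-like Adamts sum (1402 CPM) was 1349 with equal weights and 1334 thinned, and 1356 to 1446 with a library left out. The neutrophil-like Mmp sum (1675 CPM) was 1529 with doublets kept, 1474 with equal weights and 1518 thinned, and 1501 to 1863. The capillary-like Adamts sum (770.1 CPM) was 800.3 under the stricter filter, 814 with doublets kept, 789 with equal weights and 816 with haemoglobin genes kept, and 744 to 783. The epicardial-like Adamtsl sum (818 CPM) was 864 with doublets kept and 637, without library 2, to 929, without library 4. The fibroblast-like ratio of Timp to protease (0.792) was 0.778 with equal weights, 0.773 thinned and 0.774 in clean cells, and 0.747 to 0.814, and the neutrophil-like ratio (0.143) was 0.196 with doublets kept and 0.126 to 0.151. The cause of these moves was not tested. The count of 16 members higher in fibroblast-like cells was 15 at a 3-fold limit and 22 at 5 CPM. No paired analysis was possible because no barcode suffix is tied to a sample, and the alternatives for stroke against control were not run. Classes under 150 cells, such as Schwann-like, smooth muscle-like and monocyte-like, limit the depth behind their levels.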

Other observations

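A cluster of 50 cells led by Retnla, Spp1 and Lgals3 stayed unnamed because markers of another class were among its leading genes. It held Mmp12, the macrophage elastase, at 335 CPM, from 170 UMIs in 19 cells, where macrophage-like cells were at 29.3 CPM. The values in libraries 1 to 4 were 601, 20.9, 442 and 73.8 CPM, from 12, 6, 21 and 11 cells. The highest cell held 18.8% of the UMIs. Mmp12 made up 79.8% of its Mmp sum of 419.6 CPM. Mmp12 is also among the 10 genes that lead the cluster, although it was not used to form it.

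Among the macrophage groups, the ratio of the Timp sum to the Mmp and Adamts sum was 8.07 in the serous cavity type and 6.96 in the Lyve1 Timd4 type, and 2.27 in the MHC-II high type. Among the endothelial groups it was 2.99 in valve endocardium and 2.25 in the vein group, and 0.738 in the Aplnr capillary group. These ratios were not tested against each other.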
